A study of Mus musculus with 2 samples.

Results

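The collagen genes of the mouse were described in single-cell transcriptomes of ID8 tumours, chain by chain, cell class by cell class and library by library. Every gene symbol made of Col, a type number, the letter a and a chain number was taken, which gave 44 collagen chains among the 33696 genes measured. ID8 is a line of mouse ovarian surface epithelium that grows as tumours in the abdominal cavity. Solid tumours were taken from mice that had received no treatment (primary) and from mice given cisplatin, a DNA-crosslinking platinum drug, whose tumours are described as chemoresistant. Both groups carry the same tumour model and passed through the same mincing, type II collagenase digestion, straining, red-cell lysis and 10x 3′ v3 chemistry. Each group is 1 library made from several tumours pooled before loading; the number of tumours, the cisplatin dose, and the strain and age of the mice are not given in the labels.

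Collagens are extracellular proteins whose alpha chains wind into a triple helix. Fibrillar collagens (types I, III and V) form the fibres that stiffen connective tissue, type IV forms the sheet beneath epithelia and around vessels, type VI forms beaded filaments, and FACIT collagens (types XII, XIV and XVI here) sit on fibril surfaces. In ovarian cancer, fibroblasts and the mesothelial lining of the abdomen are the known sources of fibrillar matrix, whereas epithelial and endothelial cells are known for basement membrane.

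The 2 libraries held 14390 and 16390 barcodes, and 11508 primary and 13130 chemoresistant cells remained after filters and doublet removal. Their median depth was 5422.5 and 4156 UMIs per cell, a UMI being 1 captured transcript. The libraries share 52 cell barcodes. Collagen made up 0.0968% of primary and 0.0670% of chemoresistant UMIs. With 1 library per group there is no test, no p-value and no estimate of the spread between tumours. All intervals are 95% intervals that cover counting error only, exact Poisson for levels and their ratios and exact Clopper-Pearson for shares.

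Cells were sorted by UMIs of marker genes that include no collagen gene. Tumour cells (760 primary, 3018 chemoresistant) were set by keratins and by Upk3b, Igfbp5, Cpe and Rspo1, which stand in the mesothelial marker list. Collagen-rich cells (23 and 473) were set by stromal genes such as Spp1, Timp1, Tagln, Acta2 and Lox, fibroblasts (174 and 6) by Dpt, Pi16, Clec3b and similar genes, and mesothelial cells (89 and 60) by Slpi, Aldh1a2 and Bnc1. Endothelial cells (57 and 5), pericytes (30 and 5) and leukocytes (9500 and 8773) completed the set. Only classes with at least 50 cells in a library were described, which left 9 combinations of class and library. Fibroblasts and endothelial cells were therefore described in the primary library, and collagen-rich cells in the chemoresistant library, so that for these classes cell class and library cannot be told apart.

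The levels of the full marker lists describe the classes and are no independent check, since some of the same genes assigned the cells. In primary fibroblasts all 20 fibroblast markers, and in primary endothelial cells all 18 endothelial markers, had at least 10 counts per 1000000 UMIs (CPM). Tumour cells had 14 and 15 of the 25 tumour epithelial markers at that level but also 13 and 14 of the 15 mesothelial ones, some of which set the tumour class. The mesothelial class had all 15 mesothelial markers at that level in both libraries, with 18 and 13 of the 20 fibroblast markers beside them. Collagen-rich cells of the chemoresistant library had 22 of the 24 stromal markers and 11 of the 20 fibroblast markers; the fibroblast markers Dpt and Clec3b, which the rule used to take fibroblasts out first, had 1 UMI each in these 473 cells. Tumour and collagen-rich cells are the ends of a range of marker shares. Between them, 53 primary and 93 chemoresistant cells had a stromal share of tumour and stromal marker UMIs between 40 and 60%. Whether these are intermediate cells or mixed barcodes was not tested.

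Promoter sequences of a few chains are shown because their genes mark the patterns described below: Col4a5 and Col4a6, a neighbouring pair read in opposite directions and the basement membrane chains that stood furthest above leukocytes in tumour cells; Col1a2 and Col3a1, fibrillar chains of the stromal classes; and Col17a1, the chain that differed past 2-fold between the libraries in tumour cells. Each is the 150 bases before the annotated gene start, 5′ to 3′ on the gene's own strand, from RefSeq on GRCm38.p6. Capitals mark matches to CCAAT (or ATTGG, the same letters on the other strand), to GGGCGG and to TATAAA, searched on both strands. No 2 of these motifs overlap in the stretches printed. The positions are chrX:141475220-141475369 (plus strand) for Col4a5, chrX:141474096-141474245 (minus strand) for Col4a6, chr6:4505468-4505617 (plus strand) for Col1a2, chr1:45311388-45311537 (plus strand) for Col3a1 and chr19:47692043-47692192 (minus strand) for Col17a1.
Col4a5: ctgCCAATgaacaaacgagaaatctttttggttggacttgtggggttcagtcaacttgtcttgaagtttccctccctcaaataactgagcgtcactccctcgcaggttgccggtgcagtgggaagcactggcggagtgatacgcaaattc
Col4a6: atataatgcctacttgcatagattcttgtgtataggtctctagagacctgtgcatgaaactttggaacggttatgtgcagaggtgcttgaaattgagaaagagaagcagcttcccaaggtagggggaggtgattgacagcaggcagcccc
Col1a2: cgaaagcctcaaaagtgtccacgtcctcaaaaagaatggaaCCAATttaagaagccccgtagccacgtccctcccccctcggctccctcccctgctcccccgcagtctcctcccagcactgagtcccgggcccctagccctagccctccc
Col3a1: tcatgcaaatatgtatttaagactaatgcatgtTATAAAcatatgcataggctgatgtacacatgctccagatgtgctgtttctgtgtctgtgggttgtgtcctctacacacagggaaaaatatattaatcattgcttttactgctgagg
Col17a1: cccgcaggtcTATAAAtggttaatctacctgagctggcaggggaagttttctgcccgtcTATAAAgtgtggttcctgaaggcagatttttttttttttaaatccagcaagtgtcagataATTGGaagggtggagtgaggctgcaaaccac

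Of 32851 promoter windows of the same length, 24.5% held CCAAT, 28.6% held GGGCGG and 7.57% held TATAAA. The table had entries for 35 of the 44 chains in 38 windows, of which 8, 19 and 4 held these motifs. CCAAT stood in the Col4a5 and Col1a2 stretches and, on the other strand, in that of Col17a1. TATAAA stood once in the Col3a1 stretch and at 2 places in that of Col17a1, and GGGCGG in none of these stretches. The type IV genes lie in pairs: on GRCm38.p6 Col4a1 and Col4a2 on chromosome 8 share 85 bases and point away from each other, Col4a3 and Col4a4 on chromosome 1 share 114 bases, and the starts of Col4a5 and Col4a6 on the X chromosome are 1274 bases apart. Of the other chains the results turn on, Col1a1 lies at chr11:94936224-94953042, Col6a1 at chr10:76708792-76726044 and Col12a1 at chr9:79598987-79721141 on the same build.

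Among the classes with at least 50 cells, collagen as a whole was highest in fibroblasts and lowest in leukocytes. Its share of all UMIs was 1.80% in primary fibroblasts (1.79 to 1.82) and 0.998% and 0.408% in mesothelial cells of the primary and chemoresistant library. It was 0.524% in primary endothelial cells and 0.477% (0.472 to 0.482) in chemoresistant collagen-rich cells. Tumour cells stood below each of these, at 0.0404% (0.0396 to 0.0411) in the primary and 0.0430% (0.0426 to 0.0435) in the chemoresistant library. Leukocytes held 0.00569% and 0.00566%. How much of this was free RNA in the droplets was not tested. The total was not even over leukocyte types for each chain. Col14a1 was 13.5 and 14.4 CPM in phagocytes of the primary and chemoresistant library, against 0.673 and 0.204 CPM in B cells. The intervals of neighbouring classes in this order do not overlap, apart from those of leukocytes between the libraries. As a mean over cells, in place of summed UMIs, the order changed within the stromal classes and between the tumour classes: collagen-rich cells were at 0.586%, endothelial cells at 0.413%, and tumour cells at 0.0464% in the primary and 0.0453% in the chemoresistant library. Mesothelial cells were then at 0.869% and 0.658%, the latter on 60 cells. Pericytes, too few for this order, held 1.69% by summed UMIs over 30 primary cells. Over 5 chemoresistant pericytes the share was 2.62% (2.45 to 2.79), above that of primary fibroblasts.

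**Figure D1:**
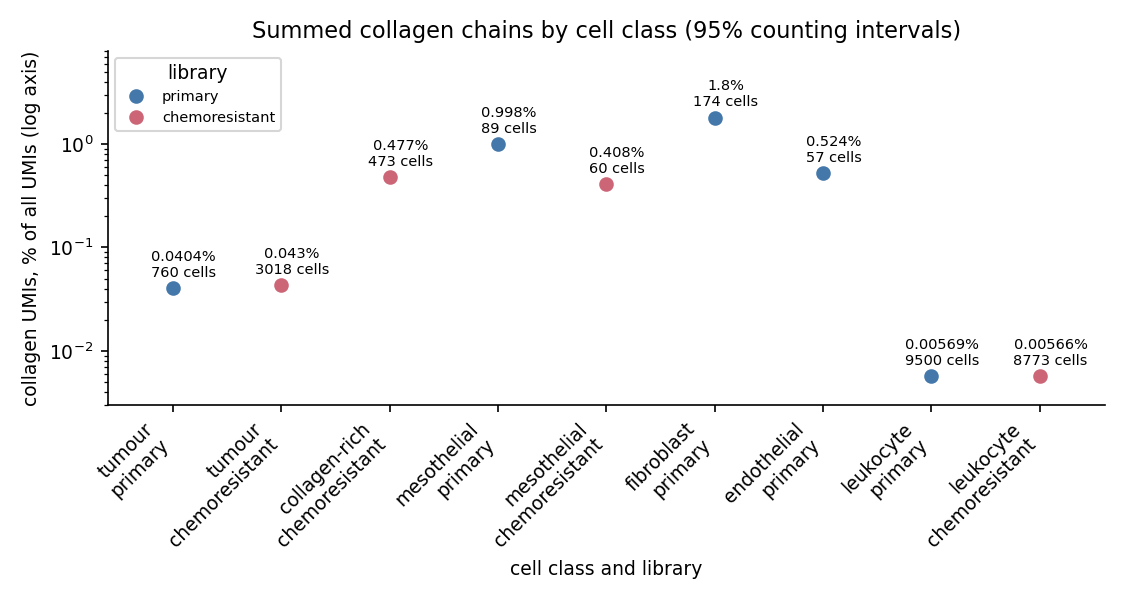
Summed UMIs of the 44 collagen chains as a percentage of all UMIs (log axis) in each class and library with at least 50 cells; points are values and bars 95% counting intervals. Primary fibroblasts stand at 1.80%, tumour cells of both libraries near 0.04% and leukocytes below 0.006%.

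The cells that held the collagen transcripts differed between the libraries. In the primary library fibroblasts held 44.8% of all collagen UMIs, mesothelial cells 17.6%, tumour cells 11.0%, the 30 pericytes 7.76% and the 23 collagen-rich cells 7.30%. In the chemoresistant library the collagen-rich cells held 46.1%, tumour cells 39.1% and mesothelial cells 5.16%. These shares also depend on how many cells of each class were recovered.

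Of the 44 chains, 28 reached 10 CPM in at least 1 of the 9 combinations: 8 of 11 fibrillar, 5 of 6 basement membrane, 2 of 3 short-chain network, 5 of 6 beaded filament, 3 of 9 FACIT, 2 of 4 transmembrane, both multiplexin chains and 1 of 3 others. The highest level was in primary fibroblasts for 18 of the 28 chains, in primary endothelial cells for 5, in chemoresistant collagen-rich cells for 2, in primary mesothelial cells for 2 and in primary tumour cells for 1. The lowest chain inside the limit was Col4a4 (11.1 CPM in collagen-rich cells), and the highest outside it was Col4a3 (9.47 CPM in endothelial cells). The 16 chains below it were Col2a1, Col4a3, Col6a4, Col7a1, Col9a1, Col9a2, Col9a3, Col10a1, Col11a1, Col11a2, Col19a1, Col20a1, Col22a1, Col23a1, Col25a1 and Col26a1; each had at least 1 UMI in the described classes. Col10a1, a network chain known from growth plate cartilage, reached 97.2 CPM in the 30 primary and 147 CPM in the 5 chemoresistant pericytes, classes too small for the limit.

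**Figure D2:**
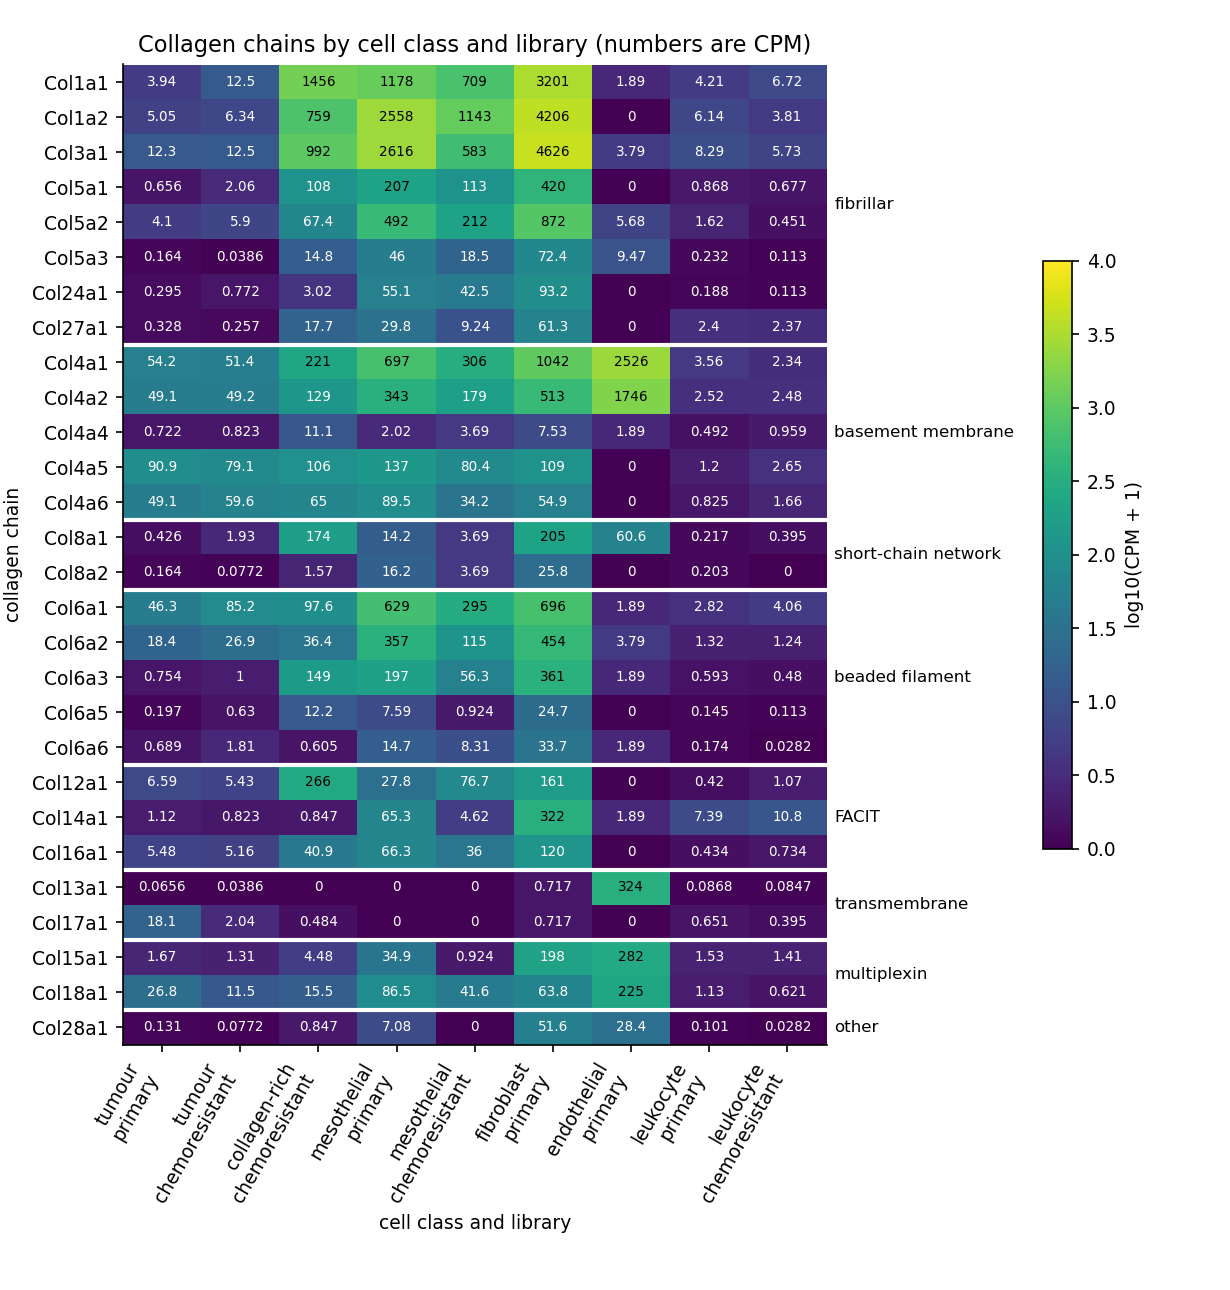
Level of each described collagen chain (rows) in each class and library (columns); colour is log10(CPM + 1) and the printed numbers are CPM. Fibrillar chains stand out in fibroblast, mesothelial and collagen-rich columns, Col4a1, Col4a2 and Col13a1 in the endothelial column, and Col4a5 and Col4a6 lie within a narrow range in the tumour and stromal columns.

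The fibrillar chains of types I and III separated the stromal classes from tumour cells. Col1a1, the alpha 1 chain of type I collagen, was 3201 CPM in primary fibroblasts, 1456 CPM in chemoresistant collagen-rich cells, and 1178 and 709 CPM in primary and chemoresistant mesothelial cells. Primary tumour cells had 3.94 CPM (3.26 to 4.71) and chemoresistant ones 12.5 CPM (11.7 to 13.3), beside 4.21 and 6.72 CPM in leukocytes. The primary tumour level was thus 0.935 times the leukocyte level (0.749 to 1.16), and the chemoresistant one 1.86 times (1.62 to 2.16).

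Col1a2, the alpha 2 chain of type I, was 4206 CPM in fibroblasts, 2558 and 1143 CPM in mesothelial cells, and 759 CPM in collagen-rich cells. In tumour cells it had 5.05 and 6.34 CPM, and in endothelial cells 0 UMIs. Col3a1, the single chain of type III collagen, was 4626 CPM in fibroblasts, 2616 and 583 CPM in mesothelial cells and 992 CPM in collagen-rich cells. Its tumour levels of 12.3 and 12.5 CPM were 1.49 times and 2.18 times those of leukocytes.

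The type V chains, minor partners that set fibril width, were highest in fibroblasts and lower in collagen-rich cells than in primary mesothelial cells. Col5a2 was 872 CPM in fibroblasts, 492 and 212 CPM in primary and chemoresistant mesothelial cells, and 67.4 CPM in collagen-rich cells. Col5a1 was 420 CPM in fibroblasts, 207 and 113 CPM in mesothelial cells, and 108 CPM in collagen-rich cells, and the intervals of the last 2 overlap. Col5a3 was 72.4 CPM in fibroblasts, 46.0 and 18.5 CPM in mesothelial cells and 14.8 CPM in collagen-rich cells. The fibrillar chains Col24a1 (93.2 CPM) and Col27a1 (61.3 CPM) were also highest in fibroblasts, and primary mesothelial cells had 55.1 and 29.8 CPM of them.

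The ratio of type I chain UMIs differed between the classes and between the libraries. A 3′ tag is counted once per captured transcript whatever its length, so these are ratios of captured transcripts and not of protein; capture can still differ between chains. Col1a1 over Col1a2 was 1.92 (1.86 to 1.98) in chemoresistant collagen-rich cells and 0.761 (0.740 to 0.782) in primary fibroblasts. It was 0.461 in primary and 0.620 in chemoresistant mesothelial cells. Leukocytes gave 0.686 (0.589 to 0.799) in the primary and 1.76 (1.42 to 2.19) in the chemoresistant library, so the leukocyte interval holds the ratio of fibroblasts in the first library and that of collagen-rich cells in the second. Chemoresistant tumour cells gave 1.97 (1.77 to 2.20) and primary tumour cells 0.779 (0.609 to 0.996). Among the 27 primary cells with a stromal share of 80% or more, Col1a1 was 2631 CPM and Col1a2 4028 CPM. The 372 chemoresistant cells with that share had 1614 and 852 CPM. Class and library cannot be told apart in the contrast of collagen-rich cells with fibroblasts.

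The ratio of type V chains differed likewise. Col5a2 over Col5a1 was 2.08 (1.94 to 2.23) in primary fibroblasts and 0.622 (0.558 to 0.692) in chemoresistant collagen-rich cells. Leukocytes gave 1.87 in the primary and 0.667 (0.331 to 1.31) in the chemoresistant library. At a stromal share of 80% or more, Col5a2 and Col5a1 were 732 and 477 CPM in primary cells. Chemoresistant cells with that share had 72.3 and 120 CPM. In the contrast of collagen-rich cells with fibroblasts, class and library cannot be told apart here either.

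The basement membrane chains were present in every class but leukocytes, with different pairs in different classes. Col4a1 and Col4a2, the common type IV chains, were highest in endothelial cells at 2526 and 1746 CPM. They stood at 1042 and 513 CPM in fibroblasts, and at 221 and 129 CPM in collagen-rich cells. Tumour cells had 54.2 and 51.4 CPM of Col4a1, and 49.1 and 49.2 CPM of Col4a2, in the primary and chemoresistant library. These tumour levels were 15.2 to 21.9 times those of leukocytes for Col4a1, and 19.5 and 19.8 times for Col4a2.

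Col4a5 and Col4a6, chains of the type IV network of some epithelial and smooth muscle basement membranes, did not follow that order. Col4a5 was 90.9 CPM (87.5 to 94.3) in primary and 79.1 CPM (77.1 to 81.1) in chemoresistant tumour cells, 106 CPM in collagen-rich cells, 109 CPM in fibroblasts, and 137 and 80.4 CPM in mesothelial cells. Endothelial cells had 0 UMIs of either chain, which allows a level of up to 5.68 CPM. The tumour and stromal classes thus lay within a range of 79.1 to 137 CPM for Col4a5, whereas Col4a1 ranged from 51.4 to 1042 CPM over the same classes.

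Col4a6 was 49.1 and 59.6 CPM in tumour cells, 65.0 CPM in collagen-rich cells, 54.9 CPM in fibroblasts, and 89.5 and 34.2 CPM in mesothelial cells. Over leukocytes, Col4a5 was 75.7 times higher in primary tumour cells (60.8 to 95.3) and 29.8 times in chemoresistant ones. Col4a6 was 59.5 and 35.8 times higher. Among the 9 chains of primary tumour cells that were at 10 CPM or more and above leukocytes, these were the largest ratios, ahead of Col17a1 at 27.8. Col4a4, a chain known from kidney and other specialised basement membranes, passed 10 CPM in collagen-rich cells only.

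Col4a1 over Col4a2, partners in the common type IV molecule, was 1.10 and 1.04 in tumour cells, 1.45 in endothelial cells, 1.72 in collagen-rich cells and 2.03 in fibroblasts (1.90 to 2.16). The genes share their start region, as given above. Whether the authors counted by strand is not stated in the labels, and the part of the overlap in these ratios was not tested.

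Col6a1 and Col6a2 were shared by tumour and stromal cells, whereas Col6a3 was not. Type VI collagen is known as a filament of the Col6a1 and Col6a2 chains with another, longer chain. Col6a1 was 696 CPM in fibroblasts, 97.6 CPM in collagen-rich cells, and 46.3 and 85.2 CPM in primary and chemoresistant tumour cells. Col6a2 was 454, 36.4, 18.4 and 26.9 CPM in the same order.

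Col6a3, the usual longer chain, was 361 CPM in fibroblasts and 149 CPM in collagen-rich cells but 0.754 and 1.00 CPM in tumour cells, beside 0.593 and 0.480 CPM in leukocytes. Col6a3 over Col6a1 was therefore 0.0163 and 0.0118 in tumour cells, 0.519 in fibroblasts and 1.53 (1.40 to 1.67) in collagen-rich cells. The alternative longer chains Col6a5 and Col6a6 were 24.7 and 33.7 CPM in fibroblasts, and Col6a6 was 0.689 and 1.81 CPM in tumour cells.

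Col8a1, a short-chain network collagen known from vessel walls and scars, was 205 CPM in fibroblasts, 174 CPM in collagen-rich cells and 60.6 CPM in endothelial cells. Its partner Col8a2 was 25.8 CPM in fibroblasts and 1.57 CPM in collagen-rich cells.

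The FACIT chains did not share 1 order of classes. Col12a1, which coats type I fibrils in tissue under tension, was highest in chemoresistant collagen-rich cells at 266 CPM (255 to 278), against 161 CPM (146 to 176) in primary fibroblasts. In the primary library the 27 cells with a stromal share of 80% or more had 72.1 CPM (51.2 to 98.5), below the fibroblasts. Class and library cannot be told apart in this order. Col14a1, a close relative of Col12a1, was 322 CPM in primary fibroblasts and 0.847 CPM, on 7 UMIs, in chemoresistant collagen-rich cells. Col16a1 was 120 CPM in fibroblasts, 66.3 and 36.0 CPM in primary and chemoresistant mesothelial cells and 40.9 CPM in collagen-rich cells.

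Of the transmembrane chains, Col13a1 and Col17a1 reached 10 CPM, each in 1 of the 9 combinations. Col13a1, a membrane collagen of cell contacts, was 324 CPM (277 to 376) in endothelial cells and at most 0.717 CPM in the other 8 combinations. Col17a1, the hemidesmosome collagen that anchors epithelial cells to basement membrane, was 18.1 CPM in primary tumour cells and 2.04 CPM in chemoresistant ones, and at most 0.717 CPM in the other 7 combinations.

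The multiplexins, which carry an endostatin domain, were highest in endothelial cells. Col15a1 was 282 CPM there and 198 CPM in fibroblasts. Col18a1 was 225 CPM in endothelial cells, 86.5 CPM in primary mesothelial cells, and 26.8 and 11.5 CPM in primary and chemoresistant tumour cells. Col28a1, a type VI relative known from peripheral nerve, was 51.6 CPM in fibroblasts and 28.4 CPM in endothelial cells.

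The make-up by type sums up these patterns. Fibrillar chains gave 75.2% of the collagen UMIs of fibroblasts, 71.7% of those of collagen-rich cells, and 72.0% and 69.3% of those of mesothelial cells. They gave 6.72% in primary and 9.41% in chemoresistant tumour cells and 0.397% in endothelial cells. Basement membrane chains gave 81.7% in endothelial cells, 60.5% and 55.8% in tumour cells, and 9.59% in fibroblasts. Beaded filament chains were 16.4% in primary and 26.9% in chemoresistant tumour cells.

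**Figure D3:**
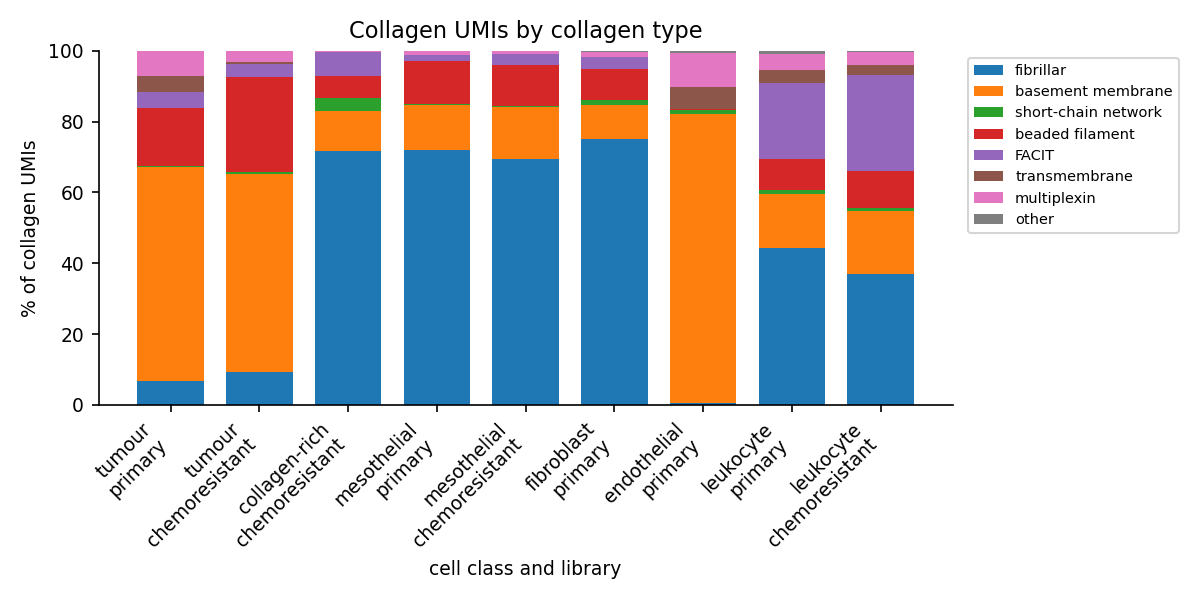
Percentage of collagen UMIs from each collagen type, stacked per class and library. Fibrillar chains make up 71.7 to 75.2% in collagen-rich cells and fibroblasts, and basement membrane chains 55.8 to 60.5% in tumour cells and 81.7% in endothelial cells.

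Between the libraries, most collagen chains of tumour cells differed by less than 2-fold. The difference is given as log2((chemoresistant CPM + 5)/(primary CPM + 5)), which understates the change of low chains, for chains with at least 10 CPM in either library. Of the 10 chains measured, 0 were higher and 1 was lower past 2-fold. Over all 9189 genes measured in tumour cells, 1.81% were higher, 3.72% lower and 5.53% either, and with 1 library per group none of these counts has a test. The median log2 difference was 0.01 for the 10 chains and -0.13 for all genes. TMM scaling, which sets another reference level, moves log2 differences in tumour cells upward by at most 0.17.

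Col17a1 was the chain that passed 2-fold. Primary tumour cells had 18.1 CPM (16.6 to 19.6) and chemoresistant ones 2.04 CPM (1.74 to 2.39), a log2 difference of -1.71 and a raw level 8.84 times lower (7.40 to 10.6). At least 1 Col17a1 UMI was found in 36.6% of primary and 4.74% of chemoresistant tumour cells, whose median depths were 35840.5 and 20731.5 UMIs. With every cell thinned to 1000 UMIs, and 2 and 26 shallower cells left out, the shares were 1.98% (1.11 to 3.24) and 0.301% (0.138 to 0.570). B cells, which should lack the chain, gave 0.0336% and 0.0428% after thinning, at median depths of 4307 and 1513 UMIs. With 20 CPM added in place of 5 the difference was -0.79 and no longer past 2-fold.

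Col18a1 was also lower and stood just inside the limit at -0.94, with 26.8 CPM in the primary and 11.5 CPM in the chemoresistant library (a raw ratio of 2.32, 2.11 to 2.55). It was at -1.15, past 2-fold, with 1 CPM added, and at -0.50 with cells thinned to 1000 UMIs. Col6a1 was 46.3 CPM (43.9 to 48.7) and 85.2 CPM (83.1 to 87.2), a log2 difference of 0.81 that was 0.57 to 0.97 over the alternatives run. At least 1 Col6a1 UMI after thinning was found in 4.22% of primary and 7.39% of chemoresistant tumour cells, and in 0.369% and 0.813% of B cells. Col6a2 differed by 0.45, Col4a6 by 0.26 and Col4a5 by -0.19. Col4a1, Col4a2 and Col3a1 differed by -0.07, 0.00 and 0.01, values whose sign changed with the setting.

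Col1a1 was close to the limit on the other side, and its value depends on few cells. Its level of 3.94 and 12.5 CPM gave a log2 difference of 0.97, and a raw ratio of 3.18 (2.63 to 3.88). The 5% of tumour cells with most Col1a1 held 67.5% of its UMIs in the primary and 87.1% in the chemoresistant library, and 1 chemoresistant cell held 191. It passed 2-fold with doublets kept (1.06), after centring on the median gene (1.10), with 1 CPM added (1.45) and with TMM scaling (1.07). As a mean over cells the difference was -0.10, and with cells thinned to 1000 UMIs 0.01. The thinned share of tumour cells with a Col1a1 UMI was 0.660% in the primary and 0.668% in the chemoresistant library, against 0.403% and 0.813% of B cells, which should lack the chain.

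**Figure D4:**
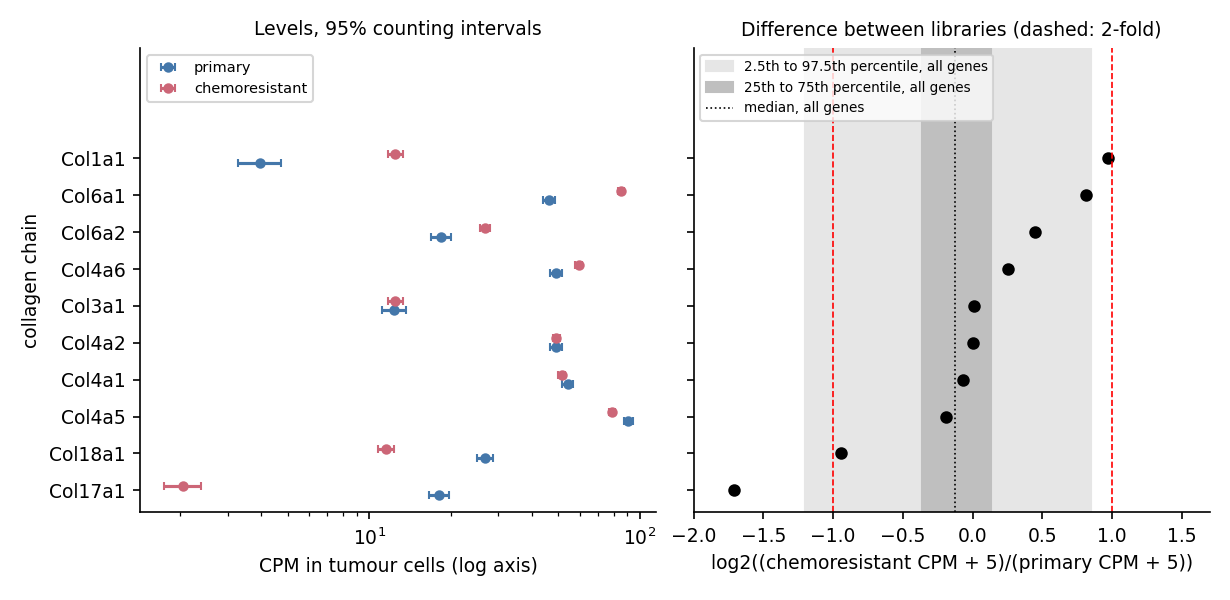
Left, levels of the 10 collagen chains measured in tumour cells of each library (CPM, log axis, 95% counting intervals); right, the log2 difference between libraries with 5 CPM added, over the spread of all genes measured. Col17a1 lies past the 2-fold line at -1.71, Col18a1 and Col1a1 just inside it at -0.94 and 0.97.

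Levels along the range from tumour-marked to stroma-marked cells show which chains go with the stromal markers. Tumour, intermediate and collagen-rich cells were grouped by the stromal share of their marker UMIs, with no collagen gene used. In the chemoresistant library collagen was 0.0401% of UMIs in the 2420 cells with a share under 10%, 0.0807% in the 93 cells at 40 to 60% and 0.515% in the 372 cells at 80% or more. In the primary library it was 0.0391% in the 600 cells under 10% and 1.41% in the 27 cells at 80% or more.

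Among cells with a stromal share under 10%, Col1a1 was 3.42 CPM in both libraries, with intervals of 2.73 to 4.22 and 2.98 to 3.91. In the same cells Col6a1 stood at 54.4 CPM (51.5 to 57.4) among primary and 97.1 CPM (94.7 to 99.6) among chemoresistant ones, Col18a1 at 25.3 and 9.43 CPM, and Col17a1 at 14.4 and 1.92 CPM. The differences of these other chains were found also in the cells with fewest stromal transcripts, whereas that of Col1a1 was not. For Col1a1 these groups cannot decide the question, since they were cut on stromal genes such as Acta2 and Lox. Those genes had patterns over the classes among the most like that of Col1a1. Its 3.42 CPM also lay below the leukocyte levels of 4.21 CPM in the primary and 6.72 CPM in the chemoresistant library. In primary groups with more stromal transcripts Col17a1 was 37.5 CPM (31.3 to 44.5) for a share of 10 to 20%, 28.5 CPM at 20 to 40%, 19.9 CPM at 40 to 60% and 42.7 CPM (26.5 to 65.3) over the 27 cells at 60 to 80%. It had 0 UMIs in the 27 primary cells at 80% or more, and in the chemoresistant groups it was at most 2.93 CPM. At a stromal share of 20 to 40%, part of the tumour class, Col1a1 was 7.35 CPM over 66 primary and 121 CPM over 235 chemoresistant cells. Col6a3 in chemoresistant cells went from 0.396 CPM under 10% to 151 CPM at 80% or more.

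Col4a1 and Col4a5 took different courses along this range. In primary cells Col4a1 went from 45.4 CPM under 10% to 578 CPM at 80% or more, where 229 CPM was found in chemoresistant cells. Col4a5 stayed between 74.8 and 113 CPM in the chemoresistant and between 89.6 and 153 CPM in the primary groups, the highest of these on 27 cells.

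**Figure D5:**
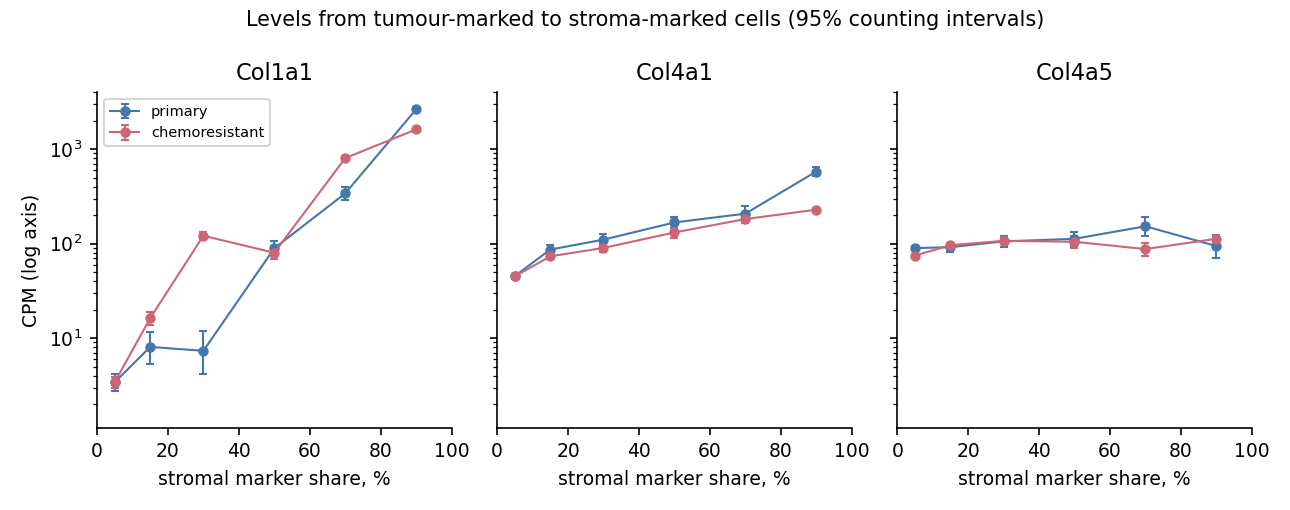
Levels of Col1a1, Col4a1 and Col4a5 (CPM, log axis) in cells grouped by the stromal share of their marker UMIs, from tumour-marked (left) to stroma-marked (right), by library, with 95% counting intervals. At the tumour-marked end Col1a1 is 3.42 CPM in both libraries, and it is highest at the stroma-marked end, while Col4a5 stays between 74.8 and 153 CPM.

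Collagen-rich cells of the chemoresistant library were set beside the tumour cells of the same library. Of 20 chains measured, 15 were higher past 2-fold and 0 lower; over all 9243 genes measured 8.29% were higher, 11.8% lower and 20.1% either. The class was set by stromal genes, Lox, Tagln and Acta2 among them, and how far that choice sets the direction of this comparison was not tested. Col6a3 was 149 times higher (118 to 190), Col1a2 120 times, Col1a1 116 times, Col8a1 90.3 times and Col12a1 49.1 times. Col4a1 was 4.30 times higher and Col4a2 2.62 times. The ratio was 1.34 for Col4a5, 1.35 for Col6a2, 1.15 for Col6a1 and 1.09 (0.995 to 1.19) for Col4a6, so these 4 chains differed by less than 2-fold between the classes.

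Against the fibroblasts of the primary library, the collagen-rich cells had less of most chains. Of 26 chains measured, 20 were lower past 2-fold and 0 higher; over all 9871 genes 18.7% were lower, 5.39% higher and 24.1% either. The median log2 difference was -1.96 for the chains and -0.29 for all genes. Fibroblasts had 2.20 times the Col1a1 of collagen-rich cells (2.14 to 2.26), 5.54 times the Col1a2, 4.66 times the Col3a1, 12.9 times the Col5a2 and 44.2 times the Col15a1. The minor fibril chain Col5a2 and the multiplexin Col15a1 thus differed by more than the type I chains. Col14a1 was 380 times higher in fibroblasts, on 7 UMIs in collagen-rich cells. Col12a1 was 1.66 times higher in collagen-rich cells (1.5 to 1.84), and Col4a5 and Col8a1 differed by 1.03 and 1.18 times. The 6 chemoresistant fibroblasts held 1.55% collagen and the 23 primary collagen-rich cells 1.36%, values on too few cells to separate class from library.

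Mesothelial cells of the chemoresistant library had lower levels of most chains by summed counts. Of 23 chains measured, 14 were lower past 2-fold and 1 higher; over all 9971 genes 8.79% were lower, 5.29% higher and 14.1% either. The median log2 difference was -1.14 for the chains and -0.05 for all genes. Col3a1 was 2616 CPM in the primary and 583 CPM in the chemoresistant library, a log2 difference of -2.16. Col14a1 was 65.3 and 4.62 CPM, and Col15a1 34.9 and 0.924 CPM, the latter on 1 chemoresistant UMI. Col12a1 was the higher chain, with 27.8 CPM (21.0 to 36.2) and 76.7 CPM (61.1 to 95).

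The make-up of the mesothelial class differed between the libraries beside these values. The sum of the 20 fibroblast markers was 6335 CPM in the primary and 2274 CPM in the chemoresistant class; Dpt was 58.2 CPM and 0, and Clec3b 51.1 and 1.85 CPM. Slpi was 5649 and 2251 CPM, Aldh1a2 306 and 61.9 CPM, Bnc1 60.7 and 68.3 CPM, and the keratin Krt18 243 and 721 CPM. The sum of the 15 markers of the mesothelial list, which does not hold Slpi, was 4075 and 4068 CPM. The part of these differences in the collagen result was not tested. Under a stricter marker rule, which left 55 and 31 cells, collagen was 0.857% and 0.709%, 7 of 24 chains were lower and 1 was higher, with 13.8% of all genes past 2-fold. Col1a1, at a log2 difference of -0.73 by the main rule, changed sign to 0.64 (985 and 1540 CPM), Col3a1 was at -0.86, and Col12a1 remained higher at 2.70. With levels averaged over cells, 6 chains were lower. In the chemoresistant class 3 of the 60 cells held 56.5% of the Col1a1 UMIs.

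Leukocytes carried little collagen, and 7 chains, chosen after values were seen, were set out by leukocyte type. In all leukocytes 1 chain, Col14a1, passed 10 CPM, with 7.39 CPM in the primary and 10.8 CPM in the chemoresistant library, and 0 chains differed past 2-fold against 3.72% of all genes. In mononuclear phagocytes Col14a1 was 13.5 CPM (12.3 to 14.8) and 14.4 CPM (13.0 to 15.9), and it was not past 2-fold, against 1.36% of all genes. B cells had 0.673 and 0.204 CPM and dendritic cells 0.415 CPM and 0 UMIs. The phagocyte intervals lie above the levels of both. Col14a1 UMIs were found in 7.89% of primary and 5.61% of chemoresistant phagocytes and in 0.367% and 0.0356% of B cells, at median depths of 10345 and 5184 UMIs in phagocytes and 4307 and 1513 in B cells.

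Col27a1, a fibrillar chain known from cartilage, had its leukocyte peak in dendritic cells, with 20.4 CPM (15.1 to 26.9) over 273 primary and 14.7 CPM (8.74 to 23.3) over 253 chemoresistant cells. Phagocytes had 1.19 and 1.19 CPM of it, and B cells 3.12 and 5.32 CPM. Col20a1, a FACIT chain below the limit in every described class, was 8.76 CPM (5.95 to 12.4) in primary neutrophils and 2.35 CPM on 2 UMIs in chemoresistant ones. Primary plasma cells had 5.06 CPM (2.5 to 9.1) of Col20a1 and primary dendritic cells 3.74 CPM (1.71 to 7.10), intervals that overlap that of primary neutrophils. It was 3.20 CPM in primary phagocytes, 1.47 CPM in primary B cells and 0.598 CPM (0.123 to 1.75) in primary T or NK cells. Col23a1, a transmembrane chain, was 4.15 CPM (1.99 to 7.64) in primary dendritic cells, on 10 UMIs, against 0.396 CPM in primary phagocytes. Primary neutrophils had 3.39 CPM (1.75 to 5.92) of Col23a1 and primary B cells 1.84 CPM (1.24 to 2.62), intervals that overlap the dendritic one. Chemoresistant dendritic cells had 1.64 CPM of it, on 2 UMIs. In neutrophils 2 chains passed 10 CPM, Col1a1 on 10 chemoresistant UMIs and Col3a1 on 42 primary and 10 chemoresistant UMIs. Of these chains 0 were past 2-fold, against 9.05% of all genes.

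The enzymes and partners that make collagen fibrils were taken as lists beside the chains. In tumour cells, the only gene past 2-fold between libraries among 33 measured list members was Lox, the crosslinking enzyme, at 2.43 and 12.6 CPM (log2 difference 1.25); the share over all genes is 5.53%. Lox is also among the genes that set the collagen-rich class and keep cells out of the tumour class. None of 10 hydroxylases and glycosylation enzymes, 8 chaperones and export factors, 4 propeptide-removing proteins, 2 receptors and 6 fibril partners measured was past 2-fold. Serpinh1, the collagen chaperone, was 163 and 124 CPM, and Sparc, a collagen-binding protein, was 2174 and 1095 CPM, a log2 difference of -0.99 just inside the limit.

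Between collagen-rich and tumour cells of the chemoresistant library, most of the measured members were higher in collagen-rich cells in every list but the chaperones, beside 8.29% of all genes higher and 11.8% lower. Of 13 hydroxylases and glycosylation enzymes measured, 9 were higher and 1 lower in collagen-rich cells. The prolyl hydroxylase chains P4ha1 and P4ha2, which stabilise the triple helix, were 229 and 127 CPM against 46.9 and 17.7 CPM, and the lysyl hydroxylase Plod2 was 242 against 59.9 CPM. Chaperones were higher for 2 of 8, with Serpinh1 at 362 against 124 CPM. Of 4 propeptide-removing proteins 3 were higher, of 4 crosslinking enzymes 3, of 5 receptors 3 with 1 lower, and of 9 fibril partners 7 with 1 lower. Among these crosslinking enzymes is Lox, at 233 against 12.6 CPM. It helped to set the collagen-rich class and to keep cells out of the tumour class, so its direction is no independent result. The receptor Ddr1, an epithelial collagen receptor, was 33.3 against 132 CPM, and Ddr2, its fibroblast relative, 29.3 against 5.76 CPM.

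Against fibroblasts, the hydroxylases were the list in which some members stood higher in collagen-rich cells, 3 of 13 with 1 lower, beside 5.39% of all genes higher and 18.7% lower. P4ha1 was 229 against 113 CPM and P4ha2 127 against 34.8 CPM. Of 10 fibril partners, 8 were lower and 0 higher, among them Dcn (991 against 7030 CPM) and Lum (195 against 652 CPM), small proteoglycans that bind fibrils. Serpinh1 was 362 against 708 CPM.

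The genes whose pattern over the 9 combinations was most like that of Col1a1, by Pearson correlation of log2(CPM + 5) and leaving out collagen genes, were Acta2 (0.994), Lox (0.993), Kif26b (0.993), Medag (0.987) and Pdzrn3 (0.987). Acta2 and Lox are among the genes that set the collagen-rich class. For Col4a1 they were Tcf7l1 (0.994), Oaz2 (0.984), Eml1 (0.984), Ppic (0.983) and Igfbp7 (0.982). These correlations describe 9 points that share 2 libraries and cell classes of different depth.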

How the data were processed

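Single-cell libraries of pooled ID8 tumours, 1 treatment naive and 1 given cisplatin, were compared. The authors deposited UMI counts, whole numbers for each gene in each barcode, made with Cell Ranger 8.0.1 on mm10 per the submitters' processing notes. Which annotation they used is not given in the sources here. The libraries hold 141334623 and 158118781 UMIs.

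Barcodes with at least 500 UMIs, at least 250 genes and at most 20% mitochondrial UMIs were kept (12824 and 14908). Scrublet (scanpy 1.11.5) scored doublets per library. Its automatic threshold called 304 primary (2.37%) and 0 chemoresistant barcodes, so the same share, 0.8% per 1000 barcodes, was removed from both after that was seen: 1316 (10.3%) and 1778 (11.9%). No cells were clustered for the results.

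A cell was non-leukocyte where at least 70% of its lineage marker UMIs were non-leukocyte, and leukocyte under 20%. Non-leukocytes were then assigned in the order endothelial, pericyte, mesothelial, fibroblast, collagen-rich (at least 3 stromal genes detected and a stromal share of at least 60%) and tumour (at least 2 tumour genes detected and a share under 40%). Cells in between (97 and 152) were left out of the classes and used only in the groups by stromal share. Also left out were cells with mixed or too few lineage markers (450 and 633) and other host tissue (328 and 5). The marker lists, the members and the pathway lists were chosen with earlier results of these data known. The genes used from each list and the thresholds were set after looking at the data, in 2 rounds, with collagen totals per class in view. Slpi, listed as a tumour epithelial marker, was used for mesothelial cells after its values were seen. Upk3b, Igfbp5, Cpe and Rspo1, listed as mesothelial markers, were used for tumour cells. The comparisons of collagen-rich cells with tumour cells and fibroblasts, and the levels by leukocyte type, were also added after seeing the data.

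Counts were summed per class and library and scaled to 1000000 UMIs (CPM). Every chain is accounted for, and those with at least 10 CPM in a class and library of at least 50 cells are described. Differences add 5 CPM, need at least 10 CPM in either group and are called past 2-fold, a rule tested on simulated data. TMM factors came from edgeR 4.0.16. Shares of cells were taken after thinning to 1000 UMIs. Gene positions and promoters came from RefSeq tables on GRCm38.p6, the build that mm10 names; they matched 44 and 35 of the 44 chains.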

Additional observations from a re-analysis of the deposited data

Results flagged for a closer look

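Cells that met neither the tumour nor the collagen-rich marker limits belong to no class and enter no comparison between classes, only the groups by stromal share. They carried more collagen than leukocytes of the same library. In the 97 such primary cells collagen was 0.120% of UMIs (0.115 to 0.125), against 0.00569% in primary leukocytes. In the 152 such chemoresistant cells it was 0.0871% (0.0833 to 0.0910), against 0.00566%. The level varied among these cells, with a median per cell of 0.0633% and 0.0630% and a 90th percentile of 1.19% and 0.431%. Doublets called in this class before removal numbered 7 and 43; their part in the level was not tested.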

How the results depend on the processing

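No result changed to the opposite call under the alternatives run. No paired analysis was possible because each group is 1 library. With pericytes left out, fibroblasts had the highest and leukocytes the lowest collagen total under each alternative, with tumour cells next to leukocytes. The order of the classes in between, and of tumour cells between libraries, changed as a mean over cells and after thinning. Under the stricter marker rule the 31 chemoresistant mesothelial cells, at 0.709%, stood above collagen-rich cells, and endothelial cells were too few for a value. With collagen-rich cells counted as tumour cells, tumour collagen was 0.0659% of UMIs in the primary and 0.0847% in the chemoresistant library, 3 chains were higher in tumour cells, and a Col1a1 UMI was found in 2.82% and 8.02% of them. As a mean over cells, totals were 0.0464% and 0.0453% in tumour cells, 0.586% in collagen-rich cells, 1.59% in fibroblasts, 0.869% and 0.658% in mesothelial cells, 0.413% in endothelial cells and 0.00781% and 0.00688% in leukocytes; 6 mesothelial chains were lower, and 1 chain was higher in collagen-rich cells than in fibroblasts. Thinned to 1000 UMIs, the same totals were 0.0459%, 0.0435%, 0.603%, 1.56%, 0.819%, 0.579%, 0.393%, 0.00724% and 0.00672%, with 2 mesothelial chains higher and 2 chains higher in collagen-rich cells than in fibroblasts. With the leukocyte level of each chain taken off, and chains lower in tumour cells counted as none, tumour totals were 0.0359% and 0.0388%. With doublets kept, totals were 0.0438% in chemoresistant tumour cells, 0.454% in collagen-rich cells, 1.72% in fibroblasts, 0.959% and 0.381% in mesothelial cells and 0.00591% and 0.00616% in leukocytes, and 1 chain was higher in tumour cells. At 10% mitochondrial UMIs, chemoresistant tumour cells were at 0.0424% and primary mesothelial cells at 1.02%. Under the stricter marker rule, chemoresistant tumour cells were at 0.0425%, collagen-rich cells at 0.597%, fibroblasts at 1.89%, primary mesothelial cells at 0.857% and primary leukocytes at 0.00539%, and 64.4% of collagen-rich cells had a thinned Col1a1 UMI. Collagen-rich cells counted as fibroblasts gave 1.72% in that primary class. The automatic doublet threshold in the primary library, an alternative chosen after seeing the data, gave 1.72% in fibroblasts, 0.959% in mesothelial cells and 0.00591% in leukocytes.

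The number of tumour chains higher, 0 in the main setting, was 1 after centring on the median gene, 1 with 1 CPM added, 1 with TMM scaling and 2 at a 1.5-fold limit. The number lower, 1 in the main setting, was 2 with 1 CPM added, 2 at a 1.5-fold limit and 0 with 20 CPM added. Against fibroblasts, 1 chain was higher in collagen-rich cells after centring and 1 at a 1.5-fold limit. Unthinned, a Col1a1 UMI was found in 10.1% and 9.18% of tumour cells, 1.90% of primary B cells and 83.3% of collagen-rich cells. The causes were not tested. Depth limits the low chains: a count of 0 allows 5.68 CPM in the primary endothelial class.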
